A study of Mus musculus with 12 samples.

Results

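Retinas labelled Casp1 KO were compared with retinas labelled WT after oxygen-induced retinopathy (OIR), a mouse model in which the retina is starved of oxygen after its vessels have been lost. The comparison held 6 of the 12 libraries of the series, 3 labelled Casp1 KO OIR and 3 labelled WT OIR, chosen by their labels alone. WT stands for the label C57BL/6 and Casp1 KO for the label Caspase1 knockout, and both OIR groups were collected 3 days after the hyperoxia had ended. WT pups spent postnatal days 7 to 12 in 75% oxygen, and their retinas were taken at postnatal day 15, as were those of the WT pups kept in normoxia. For the pups labelled Casp1 KO, the oxygen, the age, the strain background and the targeted exons are not given in the sources used here. Pups of both sexes were used, and the labels do not give the sex of a library. Neither the number of pups in a library nor a batch is given, so the p-values measure the spread between these libraries, which may be technical. The 6 normoxia libraries, 3 of each label, served to show which differences were also present without OIR.

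Caspase-1 is the protease at the end of the inflammasome, a complex that forms in cells sensing infection or damage. It cuts the precursors of interleukin-1β and interleukin-18 and the pore-forming protein gasdermin D, so that cytokines leave the cell and the cell may die by pyroptosis. In OIR, high oxygen stops and prunes the growing retinal vessels, and the return to room air leaves the central retina hypoxic, which drives sprouting of abnormal vessels towards the vitreous. Müller glia, which span the retina and recycle glutamate, respond to this injury, and the lens and the retinal pigment epithelium lie on either side of the retina when it is dissected.

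QuantSeq reads start near the 3′ end of mRNAs, and a count therefore follows transcript number rather than length. Reads counted on genes ran from 4049035 to 5657873 in the WT OIR libraries and from 4502877 to 4849329 in the Casp1 KO OIR libraries, and 3 counts, the limit that a count of 0 allows, equalled 0.545 to 0.735 CPM (counts scaled to library size with TMM factors). This limit covers counting error only. The retina itself was plain in every library, with Pdc (phosducin), a regulator of phototransduction in photoreceptors, at 7498, 7417 and 9971 CPM in WT OIR and 9020.4, 8350.4 and 9060.0 CPM in Casp1 KO OIR. One library stood apart. Against WT OIR replicates 1 and 2, the counts of WT OIR replicate 3 gave a chi-square, divided by its degrees of freedom, of 14 and 13.2, compared with 5.15 between replicates 1 and 2 and 4.58 to 5.96 between the Casp1 KO OIR libraries. Its distance from the 3 Casp1 KO OIR libraries was smaller, at 8.67 to 9.98, while WT OIR replicates 1 and 2 stood at 9.18 to 11.985 from them. Pearson correlations of log2 levels separated it less. WT OIR replicate 3 had 0.9494 and 0.9588 with WT OIR replicates 1 and 2, and 0.9584 to 0.9613 with the Casp1 KO OIR libraries. Results are therefore given with and without WT OIR replicate 3. Members named for passing without it, and other genes outside the naming rule, were chosen after their values had been seen.

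Casp1 reads went against the labels. Casp1 lies on chromosome 9 from 5298517 to 5307265, plus strand (GRCm38), and it had 0, 1 and 3 reads in the WT OIR libraries against 22, 19 and 16 in those labelled Casp1 KO OIR. In normoxia it had 2, 0 and 1 reads in WT and 45, 14 and 10 in Casp1 KO. The groups did not overlap in either condition, with the libraries labelled knockout on the higher side. Pooled over the OIR libraries, 57 of 13931398 reads stood against 4 of 14969932, a ratio of 15.3 with a 95% exact counting interval of 5.66 to 58.1. In normoxia the pooled ratio was 58.3 (19.1 to 289, exact). There WT replicate 2, with 0 Casp1 reads, held 22815830 of the 33065134 pooled WT reads, so the ratio leans on that library. Mean Casp1 levels in normoxia, with each library weighted alike, were 0.191 CPM in WT and 4.90 CPM in Casp1 KO. Both intervals cover counting error alone and leave out the spread between libraries. The exact two-sided permutation test of the OIR levels gave p = 0.1, the smallest that 3 against 3 libraries allow, and the edgeR fit an adjusted p of 0.146 with all 6 libraries and 0.0118 without WT OIR replicate 3. DESeq2 did not call Casp1 with or without that library. Reads at the 3′ end do not check a deletion elsewhere in the gene, and which part was deleted is not given. Groups are therefore called "the libraries labelled Casp1 KO" or KO, and "labelled WT" or WT, as labels only, and each direction given here rests on those labels.

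With all 6 libraries, 16 of 13435 genes tested differed between the labels at an adjusted p under 0.05 (0.119%), by edgeR's quasi-likelihood test. In the KO libraries 12 were higher (0.0893%) and 4 were lower (0.0298%), and 10 of the 16 changed by 2-fold or more. Most of the higher genes encode crystallins of the lens, namely Crybb1, Crygb, Cryba1, Crygf, Cryge, Cryba2 and Cryab. The other higher genes were Rpe65 of the pigment epithelium, the prostaglandin D2 synthase Ptgds, the transketolase Tkt, the glutamine synthetase Glul and Sertad3. The 4 lower genes were the proteoglycan gene Vcan, the Y chromosome gene Eif2s3y, A930013F10Rik and Gm36449. None of the 16 overlapped between the labels, which also held for 2184 of all genes tested (16.3%). An unadjusted p under 0.05 was found for 1419 of the 13435 genes, which is the share to set beside each list count at that threshold below.

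**Figure D1:**
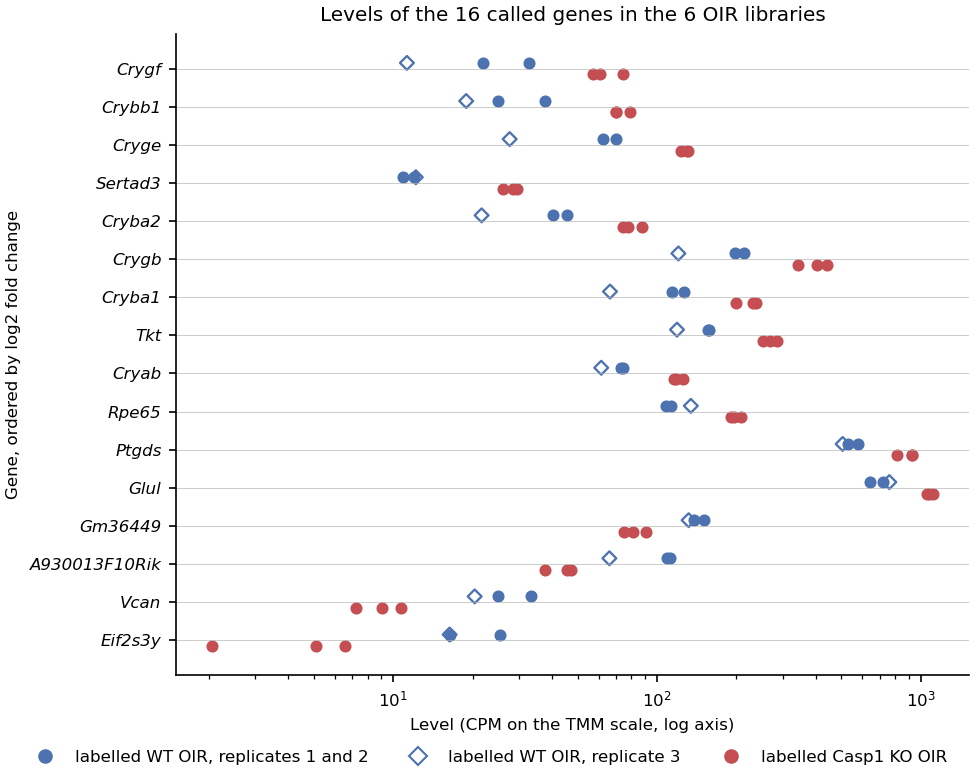
Level of each of the 16 called genes in the 6 OIR libraries, in CPM on a log axis, with WT libraries in blue, WT OIR replicate 3 as an open diamond and KO libraries in red. For every gene the 3 red points stand to one side of the 3 blue ones, and for the 7 crystallins the open diamond is the lowest point.

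The count rested on single libraries. Without WT OIR replicate 3, 719 of 13912 genes were called (5.17%), 399 higher (2.87%) and 320 lower (2.3%), and all 16 genes were among them. These are the shares to set beside each list count without that library below. Of the 719, 148 changed by 2-fold or more. Without WT OIR replicate 1 the count was 23 and without WT OIR replicate 2 it was 1. Without KO OIR replicate 1, 2 or 3 it was 0 by edgeR, while DESeq2 called 23, 16 and 24 genes in the same libraries. At an unadjusted p under 0.05 these 3 fits held 1179, 1064 and 1119 genes.

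For the 719 genes, the place of WT OIR replicate 3 between the other libraries was measured on the log2 scale, with 0 at the mean of WT OIR replicates 1 and 2 and 1 at the mean of the KO OIR libraries. Its median place was 0.847, with quartiles of 0.517 and 1.16. It lay nearer the KO mean for 549 genes (76.4%), and beyond that mean for 273. The genes had been called on the other 5 libraries, so the place of this one was not part of the choice. The scale was set by those same libraries, however, so its ends were chosen to lie apart. A place above 0 is thus expected in part from the choice alone, and how far above was not worked out. For the 7 crystallins called with all libraries, WT OIR replicate 3 lay farther from the KO libraries than the other WT libraries did. This was not particular to crystallins, since its place was also below 0 for others of the 719, such as Tkt (-0.504), Ptgds (-0.193) and Clu (-0.630).

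**Figure D2:**
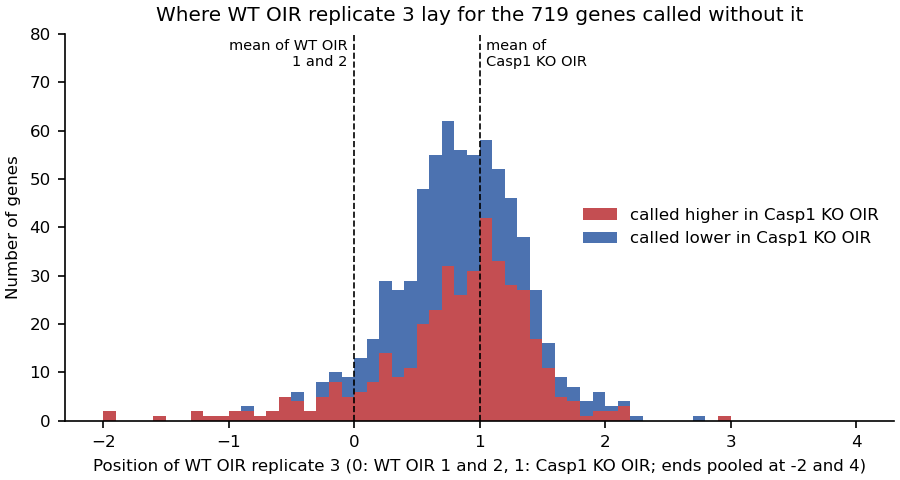
Number of genes (vertical axis) by the place of WT OIR replicate 3 (horizontal axis, 0 at the mean of WT OIR replicates 1 and 2, 1 at the mean of the KO OIR libraries), for the 719 genes called without that library, with genes called higher in red and lower in blue. The histogram is centred near the KO mean, with a median of 0.847.

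Crystallins are the abundant structural proteins of the lens, and Cryab, a small heat shock protein, is also made by the neural retina. Upstream sequences of called crystallin genes are shown because these genes moved together and because near-identical members can trade reads. The windows are RefSeq promoters on GRCm38.p6, 250 bases before and 50 bases after each annotated start, written 5′ to 3′ on the strand of the gene, with matches to the searched motifs in capitals. Cryge is at chr1:65051114-65051413 on the minus strand, Crygf at chr1:65926272-65926571 on the plus strand, Crybb1 at chr5:112255570-112255869 on the plus strand and Cryba1 at chr11:77725244-77725543 on the minus strand.
Cryge: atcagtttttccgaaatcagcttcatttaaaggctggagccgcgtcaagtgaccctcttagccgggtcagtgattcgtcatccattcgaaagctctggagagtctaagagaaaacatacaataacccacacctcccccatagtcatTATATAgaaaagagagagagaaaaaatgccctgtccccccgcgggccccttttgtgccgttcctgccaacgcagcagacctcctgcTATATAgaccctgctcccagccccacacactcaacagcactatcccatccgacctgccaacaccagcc
Crygf: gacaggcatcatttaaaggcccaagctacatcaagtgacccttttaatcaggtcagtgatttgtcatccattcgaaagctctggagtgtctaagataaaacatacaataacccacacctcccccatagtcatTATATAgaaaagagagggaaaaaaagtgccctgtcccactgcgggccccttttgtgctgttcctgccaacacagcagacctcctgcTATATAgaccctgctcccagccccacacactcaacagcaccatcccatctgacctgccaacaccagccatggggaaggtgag
Crybb1: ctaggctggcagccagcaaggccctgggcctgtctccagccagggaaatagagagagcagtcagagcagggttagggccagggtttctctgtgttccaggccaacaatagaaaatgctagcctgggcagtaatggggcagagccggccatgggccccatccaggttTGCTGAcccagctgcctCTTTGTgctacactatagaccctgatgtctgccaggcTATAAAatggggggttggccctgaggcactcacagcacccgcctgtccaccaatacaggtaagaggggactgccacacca
Cryba1: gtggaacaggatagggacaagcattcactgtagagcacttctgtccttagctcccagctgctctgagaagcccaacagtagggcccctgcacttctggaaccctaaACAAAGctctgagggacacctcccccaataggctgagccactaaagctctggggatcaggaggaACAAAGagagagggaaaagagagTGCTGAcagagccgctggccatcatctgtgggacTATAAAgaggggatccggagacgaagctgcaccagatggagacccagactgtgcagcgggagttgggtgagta
The motifs searched on both strands were the TATA box core TATAAA and its variant TATATA, the half-site TGCTGA of Maf factors and the core ACAAAG of Sox factors, both of them families that act in lens fibres. TATAAA and TATATA can overlap in a longer run, and no matches overlap in these 4 windows. Cryge and Crygf carry TATATA, which reads the same on both strands, at -104 and -18 from the annotated start in Cryge and at -118 and -32 in Crygf, while Crybb1 and Cryba1 carry TATAAA at -30 and -23. TGCTGA was found in Crybb1 and Cryba1 at -84 and -57. ACAAAG was found at -67 in Crybb1, on the other strand, and at -144 and -80 in Cryba1. Of 32851 RefSeq promoters, 13.6% hold TATAAA, 5.67% TATATA, 19.5% TGCTGA and 18.7% ACAAAG. Of the 15 crystallins with a window in that table, 4, 8, 10 and 5 hold them. These matches are descriptions of letters and not binding sites. The longest run shared between the Cryge and Crygf windows was 55 bases, and no other pair of the 4 shared a run over 12.

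Cryge and Crygf are also alike at the end that was sequenced. Of the 226 windows of 75 bases, the read length, in the last 300 bases of each transcript, 60 were identical in both genes, while no such window was shared by Crygb or by any other crystallin examined. The handling of reads matching several genes is not given in the sources used here, so the split of reads between Cryge and Crygf is uncertain. Nor is the strand setting of the counting given, so reads of a gene overlapped on the other strand cannot be assigned to it alone. Among the genes whose positions were looked up, this touches Cryba1, Cryab, Glul, Vcan, Bfsp2, Dct, Pmel, Mt2, Cp, Txnip, Nek7, Junb, Pdc, C1ql1, Ftl1, Rpgrip1, Nefl, Slc2a1, Pfkp, Eng, Cdh5, Col4a1, Col4a2, Col18a1, Nid1, Cx3cr1, Malat1, Meg3, Kcnq1ot1, Rps14, Rps27a, Xist and Tsix. The overlaps of named genes whose positions were not looked up were not examined. Among the γ-crystallins, all 8 genes of the list were tested and had positive log2 fold changes, with a median of 1.148 against -0.00237 for all genes tested. Of these, 3 passed the edgeR test with all 6 libraries (5 by DESeq2 and 6 by edgeR's likelihood ratio test) and 6 without WT OIR replicate 3, where the median was 0.901. Among the 8 α- and β-crystallins, 4 passed with all 6 libraries (6 by DESeq2) and 6 without that library, with medians of 0.912 and 0.692, and all 8 differences were positive in both fits. Over all genes tested, 0.119% passed with all 6 libraries and 5.17% without that one.

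Crybb1 (chromosome 5 from 112255815 to 112269585, plus strand) encodes a β-crystallin and had the smallest p of all genes. Its levels were 37.5, 25 and 18.9 CPM in WT OIR replicates 1, 2 and 3 and 69.6, 69.9 and 78.8 CPM in the KO OIR libraries. All 3 KO libraries stood well above the highest WT library, and the change on the log2 scale was 1.44 (standard error 0.21, edgeR adjusted p = 0.0161). Crygb (chromosome 1 from 65080219 to 65082288, minus strand) was the most abundant called crystallin, at 214, 198 and 120.5 CPM in WT OIR and 402, 439 and 343 CPM in KO OIR. Replicate 3 was the lowest of the WT libraries, no group overlapped the other, and the log2 fold change was 1.16 with it (edgeR adjusted p = 0.0161) and 0.95 without it. Cryba1 (chromosome 11 from 77718615 to 77725283, minus strand, overlapped by Nufip2 on the other strand) was at 127, 114 and 66.3 CPM in WT and 230.3, 237 and 199 CPM in KO. Its log2 fold change was 1.13 (standard error 0.18, edgeR adjusted p = 0.033).

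Crygf had the largest fold of the crystallins called, at 1.57 on the log2 scale (standard error 0.27, edgeR adjusted p = 0.0358), with 32.6, 21.9 and 11.3 CPM in WT and 60.9, 74.5 and 57 CPM in KO. Cryge rose from 62.4, 69.6 and 27.6 CPM in WT, a mean of 53.2 ± 22.5 (SD, n = 3), to 123, 129.6 and 131 CPM in KO, a mean of 128 ± 4.24 (SD, n = 3). Cryba2 was at 45.5, 40.3 and 21.6 CPM in WT and 77.4, 74 and 87.4 CPM in KO. Cryab, the chaperone, rose less, from 72.7, 74.4 and 61.4 CPM to 118, 125 and 116 CPM, a log2 fold change of 0.79 (standard error 0.14, edgeR adjusted p = 0.0358), and Hspb2 overlaps it on the other strand. Crygc, Crygd and Cryga passed edgeR's test without WT OIR replicate 3 and not with it, with log2 fold changes without it of 0.85, 0.71 and 0.66. Crygs and Crygn did not pass that test with or without it, with 0.38 (standard error 0.18) and 1.40 (standard error 0.59) without that library.

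Summed over the 8 γ-crystallins, levels were 760.1, 622 and 319 CPM in WT OIR replicates 1, 2 and 3 and 1238, 1274 and 1134 CPM in KO OIR. The α- and β-crystallins summed to 642, 566 and 354 CPM and 994, 1001 and 927 CPM. Lens genes that are not crystallins stood far lower. The 9 listed summed to 27.7, 25.8 and 22.9 CPM in WT OIR and 49.4, 52.6 and 53.3 CPM in KO OIR. Of those 9 genes 5 were tested, and 2 had an unadjusted p under 0.05. With all 6 libraries none passed by edgeR's quasi-likelihood test and the likelihood ratio test called 1, while DESeq2 called none with or without WT OIR replicate 3. Bfsp2, a beaded filament protein of lens fibres, was at 6.61, 4.05 and 6.18 CPM in WT and 15.8, 20.8 and 15 CPM in KO without overlap, and passed without WT OIR replicate 3 (log2 fold change 1.72, edgeR adjusted p = 0.00366). The lens channel gene Mip had 0 reads in 5 of the 6 OIR libraries and 3 in KO replicate 3, and Gja3, a lens gap junction gene, had 1, 0 and 1 reads in WT and 3, 3 and 5 in KO. The part of lens tissue left on the retina in these differences was not tested. In bulk tissue, fewer cells of a type and less RNA per cell cannot be told apart, here and for each cell type below.

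Genes of the retinal pigment epithelium, the pigmented layer that recycles retinal for the photoreceptors, were mostly higher in the KO libraries too, in 9 of 11 tested. Of these, 1 passed with all 6 libraries (4 by DESeq2 and 4 by the likelihood ratio test), against 0.119% of all genes. Without WT OIR replicate 3, 7 passed, all higher, against 2.87% of all genes. The median log2 fold change was 0.53 with all libraries and 0.621 without that one. Rpe65 (chromosome 3 from 159599175 to 159625321, plus strand), the isomerase that regenerates the visual chromophore, was at 108, 113 and 134 CPM in WT and 190.1, 196 and 209 CPM in KO. The KO libraries were all above the highest WT library, which was replicate 3 (log2 fold change 0.75, standard error 0.13, edgeR adjusted p = 0.0358). Lrat, which makes the retinyl esters that Rpe65 acts on, was at 15.7, 19.5 and 15.8 CPM and 33.6, 41.2 and 33.9 CPM and passed without WT OIR replicate 3 (log2 fold change 1.04). So did Ttr, the carrier of thyroxine and retinol-binding protein, Dct, an enzyme of melanin synthesis, and Pmel, a melanosome protein, with log2 fold changes of 0.47, 0.60 and 0.90. Rgr and Rdh5, of the visual cycle, had 0.62 and 0.72. The melanin genes Tyr and Tyrp1 did not pass, at 0.26 (standard error 0.35) and 0.42 (standard error 0.31). Best1 had 5, 3 and 20 reads in WT and 7, 0 and 0 in KO. Over the list of 13 genes the summed level was 1329, 1173 and 1276 CPM in WT and 1831, 1879 and 1752 CPM in KO. The part of pigment epithelium carried with the retina in these differences was not tested.

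**Figure D3:**
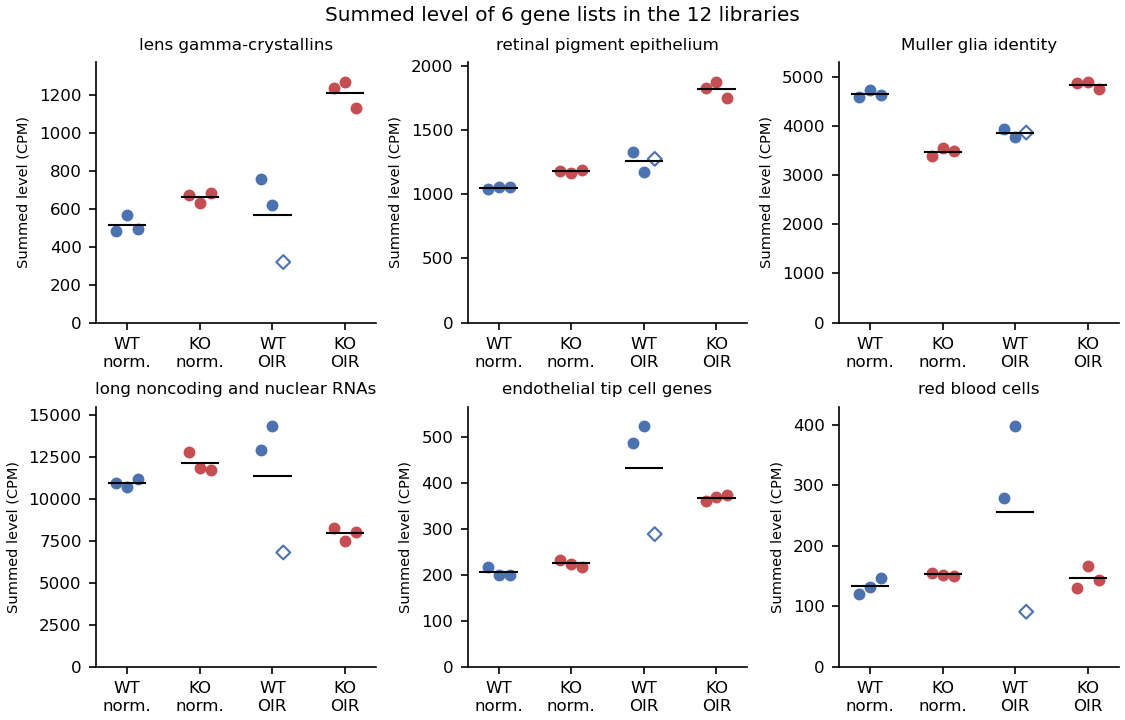
Summed level of 6 gene lists (vertical axes, CPM) in the 12 libraries, by label and condition, with a bar at each mean and WT OIR replicate 3 as an open diamond. γ-Crystallins and pigment epithelium genes are highest in the 3 KO OIR libraries, and for nuclear RNAs, tip cell genes and red blood cell genes the diamond falls below the other WT OIR libraries.

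Ptgds, Tkt and Glul were abundant genes among the 16 that do not belong to the lens. Ptgds (chromosome 2 from 25466709 to 25470046, minus strand) makes prostaglandin D2 and is secreted as a lipid carrier. It was at 579.6, 529 and 505 CPM in WT and 812, 927 and 928 CPM in KO, a log2 fold change of 0.73 (standard error 0.11, edgeR adjusted p = 0.0161). Tkt (chromosome 14 from 30548359 to 30574720, plus strand) links the pentose phosphate pathway to glycolysis. Its levels were 156, 157 and 119 CPM in WT and 251, 286 and 268 CPM in KO, with WT replicates 1 and 2 alike and replicate 3 lower (log2 fold change 0.91, standard error 0.13, edgeR adjusted p = 0.0161). Tkt was the 1 gene of 20 tested on the list of NRF2 antioxidant targets that passed with all libraries, beside Ftl1 without WT OIR replicate 3. Sertad3 (chromosome 7 from 27473768 to 27477364, plus strand), a transcriptional regulator, was at 12, 10.9 and 12.2 CPM in WT and 26, 28.5 and 29.4 CPM in KO. The 3 WT libraries were close to each other, and the log2 fold change of 1.26 (standard error 0.23, edgeR adjusted p = 0.0403) was 1.30 without WT OIR replicate 3.

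Glul (chromosome 1 from 153899944 to 153909723, plus strand, overlapped by Mir8114 on its strand and Teddm2 on the other) encodes the glutamine synthetase of Müller glia, which detoxifies glutamate taken up from synapses. It was at 642, 717 and 759 CPM in WT and 1109, 1069 and 1051 CPM in KO, with no overlap (log2 fold change 0.61, standard error 0.11, edgeR adjusted p = 0.0358). Of 19 Müller glia genes tested, 16 were higher on average and Glul alone passed with all 6 libraries, where 8 had an unadjusted p under 0.05. Without WT OIR replicate 3, 5 were called higher and 1 lower, against 2.87% and 2.3% of all genes. Clu, Dkk3 and Apoe, secreted proteins of these cells, then had log2 fold changes of 0.35, 0.38 and 0.36, and Rlbp1, the carrier of 11-cis retinoids, 0.35. The glutamate transporter gene Slc1a3 was at 185, 184 and 201 CPM in WT and 188, 189 and 183 CPM in KO. Abca8a, a lipid transporter, was the 1 gene called lower (-0.70). Over the list of 20, levels summed to 3951, 3783 and 3870.1 CPM in WT and 4880.2, 4910.3 and 4751 CPM in KO. Markers of glial reactivity gave no call with all libraries. Gfap, the intermediate filament of reactive glia, was at 88.7, 82.1 and 68 CPM and 82, 90.7 and 86.2 CPM, and of 17 reactivity genes tested none passed by edgeR or DESeq2 with all libraries (1 had an unadjusted p under 0.05) and 1, Cp, was called lower without WT OIR replicate 3 (-0.40).

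Metallothioneins, small metal-binding proteins that glia make under stress, leaned higher. Mt1 was at 287, 243 and 319 CPM in WT and 338, 383 and 346 CPM in KO, and Mt2 at 96.5, 117 and 149 CPM and 160.1, 176 and 160.4 CPM. None of 3 passed by edgeR or DESeq2 with all libraries, where 2 had an unadjusted p under 0.05. Both Mt1 and Mt2 passed without WT OIR replicate 3, with log2 fold changes of 0.43 and 0.64 (edgeR adjusted p = 0.0151 and 0.00215).

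Among the 4 lower genes, Vcan (chromosome 13 from 89655312 to 89742509, minus strand, overlapped by Gm16318 and Gm4117 on the other strand) encodes versican, a large proteoglycan of the extracellular matrix and the vitreous. It was at 25, 33.1 and 20.4 CPM in WT and 10.7, 7.23 and 9.05 CPM in KO, so that the lowest WT library still stood above the highest KO library (log2 fold change -1.53, standard error 0.27, edgeR adjusted p = 0.0389). A930013F10Rik was at 112, 109 and 66 CPM in WT and 45.6, 37.7 and 47.1 CPM in KO (log2 fold change -1.13, standard error 0.19, edgeR adjusted p = 0.0358). Gm36449 was at 150.4, 138 and 132 CPM and 81.4, 90.4 and 74.7 CPM (log2 fold change -0.76, standard error 0.14, edgeR adjusted p = 0.0374). Neither of these 2 symbols is in the GENCODE vM21 annotation used here, so no position or role is given for them.

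Eif2s3y (chromosome Y from 1010543 to 1028847, plus strand) encodes a translation initiation subunit from the Y chromosome. It was at 16.4, 25.4 and 16.4 CPM in WT and 5.11, 6.57 and 2.06 CPM in KO (log2 fold change -2.08, standard error 0.38, edgeR adjusted p = 0.0405). The other Y chromosome genes leaned the same way without passing edgeR's quasi-likelihood test, and passed it without WT OIR replicate 3. With all 6 libraries, DESeq2 called 2 and the likelihood ratio test 3 of the 5 sex-linked transcripts tested. DESeq2 called 1 of them without WT OIR replicate 3. Ddx3y was at 59.5, 142 and 76.1 CPM in WT and 48.5, 39 and 48.1 CPM in KO, and Kdm5d and Uty had log2 fold changes of -1.13 and -1.12. Xist, the RNA that silences an X chromosome in females, had 1772, 16 and 659 reads in WT OIR replicates 1, 2 and 3 and 1716, 1653 and 1937 in KO OIR, and Tsix overlaps it. Reads of Xist thus differed most within the WT OIR group, where replicate 2 was nearly free of them and had the highest levels of Eif2s3y and Ddx3y. The part of the sex of the pups in the other differences was not tested.

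The machinery around caspase-1 itself was sparse in whole retina. Of 28 genes on the inflammasome list, 27 were in the table and 11 were tested. None passed by edgeR's quasi-likelihood test or DESeq2 with all 6 libraries (1, Casp1, had an unadjusted p under 0.05), while the likelihood ratio test called 1. The edgeR fit without WT OIR replicate 3 called 2, Casp1 and Txnip, both higher, while DESeq2 called 0 of the list in the same libraries. The precursor gene Il18 was at 7.10, 13.4 and 6.18 CPM in WT and 12.9, 8.98 and 14.8 CPM in KO, with overlapping groups (log2 fold change 0.46, standard error 0.36). Il1b, the other cytokine precursor, had 2, 6 and 0 reads in WT and 1, 0 and 0 in KO. Nlrp3, the sensor, had 0, 4 and 0 and 0, 0 and 0 reads, Gsdmd, gasdermin D, 1, 0 and 0 and 0, 0 and 2, and Casp4 2, 0 and 0 and 0, 0 and 0. Casp12, a neighbour of Casp1, had 8, 2 and 0 reads in WT and 0, 0 and 0 in KO. Such counts cannot show a difference at this depth. The adaptor Pycard was at 4.16, 2.39 and 3.45 CPM and 8.45, 1.09 and 4.52 CPM, and Nek7, a kinase that licenses Nlrp3, at 49.2, 70.0 and 72.5 CPM and 66.3, 57.4 and 79.8 CPM. Txnip, a stress-responsive arrestin that binds thioredoxin, ranged from 1.96 to 18.7 CPM within WT, wider than the KO range of 10.7 to 14.2 CPM.

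The adhesion molecules and chemokines that the study turns on showed no difference that passed. Of 9 such genes tested none passed by edgeR or DESeq2 in either set of libraries, and 1 had an unadjusted p under 0.05. Vcam1, the endothelial adhesion molecule, was at 11, 11.6 and 12.7 CPM in WT and 13.6, 10.1 and 17.7 CPM in KO (log2 fold change 0.23, standard error 0.29). Cxcl1, a neutrophil chemokine, had 3, 0 and 0 reads in WT and 0, 0 and 0 in KO, Cxcl2 had 0, 6 and 0 and 0, 0 and 2, and Cxcl5 had 0, 0 and 0 and 0, 1 and 0, all too few to compare. Junb, an AP-1 subunit, was at 23, 29.8 and 28.5 CPM and 29.6, 37.4 and 42.8 CPM, at 0.43 on the log2 scale (standard error 0.20, edgeR adjusted p = 0.472). Il33 was at 22.3, 22.5 and 26.7 CPM and 28.7, 25.8 and 24.1 CPM. Of 9 NF-κB response genes, 1 had an unadjusted p under 0.05 and none passed by edgeR or DESeq2 with all libraries. Nfkbia, the inhibitor that NF-κB induces, was at 70.3, 87.1 and 143 CPM in WT and 133, 147 and 153 CPM in KO, with WT replicate 3 among the KO values, and passed without that library (log2 fold change 0.88, edgeR adjusted p = 0.000102).

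Genes near Casp1 were examined because a knockout bred from another strain can carry a segment around the targeted gene. Within 10 Mb, 34 genes were tested, none passed by edgeR's quasi-likelihood test with all 6 libraries, 4 had an unadjusted p under 0.05, and DESeq2 and the likelihood ratio test each called 1. Leaving out WT OIR replicate 3, 4 of 37 were called, all lower, against 2.3% of all genes. Gria4, an AMPA receptor subunit, was at 83.3, 75.9 and 47.6 CPM in WT and 60.3, 52.3 and 46.7 CPM in KO (-0.57 on the log2 scale without that library). In normoxia it was at 99.6, 96 and 98.5 CPM and 68.6, 72 and 57.5 CPM and was the 1 gene of 36 called there (log2 fold change -0.56, standard error 0.13, edgeR adjusted p = 0.0109). Cep126, of the cilium base, was at 102, 84.7 and 72.9 CPM and 55.6, 43.1 and 60.3 CPM, without overlap. Dync2h1, the motor of retrograde transport in cilia, and Dcun1d5 had log2 fold changes of -0.46 and -0.58 without WT OIR replicate 3.

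Vascular genes leaned lower in the KO libraries, but WT OIR replicate 3 lay with them. Of 18 endothelial genes tested none passed by edgeR or DESeq2 with all libraries, with 3 at an unadjusted p under 0.05, all lower. With WT OIR replicate 3 left out, 4 of 23 were called lower by edgeR, against 2.3% of all genes, and the median was -0.458. DESeq2 called 1 of the list in the same libraries. Pecam1, the junction protein of endothelial cells, was at 34, 26.1 and 16.5 CPM in WT and 9.34, 14.5 and 13.6 CPM in KO, with no overlap (-1.02, standard error 0.29, with all libraries, edgeR adjusted p = 0.249). Cdh5, VE-cadherin, was at 9.06, 12.9 and 2.91 CPM and 4.0, 3.50 and 3.91 CPM, and Eng, a TGF-β co-receptor, at 12.7, 12.7 and 2.91 CPM and 2.45, 5.69 and 3.70 CPM. For both, WT replicate 3 was as low as the KO libraries. Cldn5, the tight junction claudin, was at 25.5, 26.1 and 4.54 CPM and 23.8, 22.8 and 19.5 CPM, so that only WT replicate 3 was low.

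The tip cell genes, which mark the leading cells of vessel sprouts, summed to 486, 524 and 288 CPM in WT and 361, 369 and 374 CPM in KO. Of 18 tested none passed by edgeR or DESeq2 with all libraries and 1 had an unadjusted p under 0.05, lower. When WT OIR replicate 3 was left out, 2 of 19 were called lower, against 2.3% of all genes, the collagen IV chains Col4a1 and Col4a2. Col4a1 was at 101, 90.4 and 34.5 CPM in WT and 37.8, 46 and 44 CPM in KO. Apln, the tip cell peptide apelin, was at 33.8, 40.9 and 19.3 CPM and 26, 20.4 and 28.2 CPM, with overlap. Vegfa, the hypoxia-induced growth factor that drives sprouting, was at 185, 169.8 and 118 CPM and 146, 126 and 142 CPM, and its receptor gene Kdr at 77.6, 86.3 and 75.8 CPM and 62.3, 78.8 and 64.4 CPM. Of the 8 VEGF ligands and receptors tested none had an unadjusted p under 0.05, and none passed by edgeR or DESeq2 in either set of libraries.

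Basement membrane and collagen genes had a median log2 fold change of -0.496 over 25 tested, with 20 negative. With all libraries none passed by edgeR's quasi-likelihood test or DESeq2, the likelihood ratio test called 1, and 10 had an unadjusted p under 0.05 (7 lower and 3 higher). Without WT OIR replicate 3, 7 were called lower, against 2.3% of all genes. Col18a1, the source of endostatin, was at 62.2, 78.6 and 54 CPM in WT and 42, 33.9 and 42.2 CPM in KO, without overlap, and Nid1, which links laminin to collagen IV, at 21.1, 26.3 and 9.27 CPM and 12.5, 9.42 and 8.23 CPM. Sparc, the most abundant of the list and made by glia as well, was higher in KO in every library, at 1565, 1560.0 and 1372 CPM and 1770.3, 1924 and 1779 CPM, and did not pass (0.29, edgeR adjusted p = 0.341). Of 14 pericyte and smooth muscle genes tested, 8 had positive differences with all libraries (median 0.145), none passed by edgeR or DESeq2 and 2 had an unadjusted p under 0.05, both lower. The fit without WT OIR replicate 3 called 1 higher, Vtn or vitronectin (0.33, edgeR adjusted p = 0.0462), and 1 lower. The lower one, Acta2, the smooth muscle actin, was at 36.7, 28.7 and 10.5 CPM and 17.6, 17.3 and 8.84 CPM (-1.16 without that library, edgeR adjusted p = 0.00945).

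Red blood cell genes spread widely within WT OIR. Hbb-bs, β-globin, was at 172, 258 and 56.7 CPM in WT and 90.9, 115 and 102 CPM in KO, and the list summed to 278, 398 and 90.9 CPM and 130.3, 167 and 144 CPM. WT replicate 3 was below every KO library, and replicates 1 and 2 above them. Of 5 tested, none passed by edgeR's quasi-likelihood test or DESeq2 with all libraries, the likelihood ratio test called 1, and 3 had an unadjusted p under 0.05, all lower. Without WT OIR replicate 3, 4 were called lower, against 2.3% of all genes (Hbb-bs -1.06, Hbb-bt -1.39, Hba-a1 -1.49, Hba-a2 -1.46 on the log2 scale). Globin pairs share 3′ windows, 66.8% of those of Hba-a1 with Hba-a2 and 29.6% of those of Hbb-bs with Hbb-bt, so each pair is best read together. The blood left in the tissue was not measured otherwise, and its part in the endothelial differences was not tested.

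**Figure D4:**
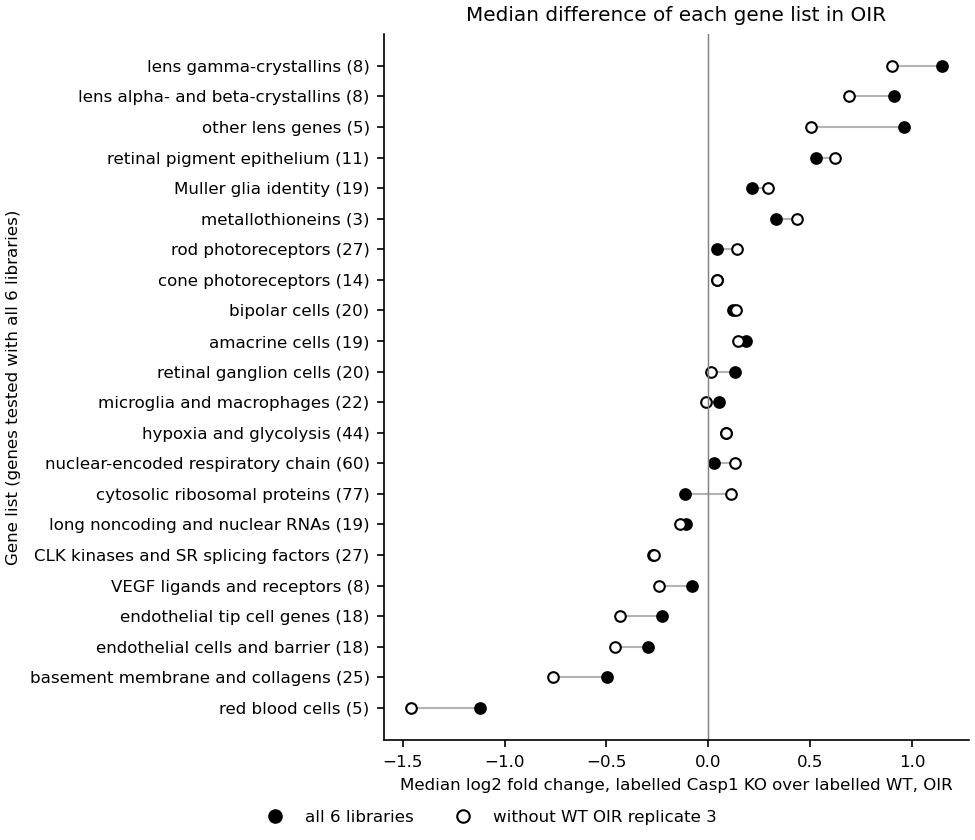
Median log2 fold change of gene lists in OIR (horizontal axis, KO over WT), with all 6 libraries as filled points and without WT OIR replicate 3 as open points, and the number of genes tested in brackets. Crystallins and pigment epithelium stand to the right in both fits, with medians of 1.148 and 0.53 for γ-crystallins and pigment epithelium, and red blood cell and basement membrane genes to the left, at -1.119 and -0.496.

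Immune cells and inflammatory programmes did not differ in a way that passed. Of 22 microglia and macrophage genes tested, none had an unadjusted p under 0.05 and none passed by edgeR or DESeq2 in either set of libraries. Cx3cr1, the fractalkine receptor of microglia, was at 20.6, 21.5 and 28.2 CPM in WT and 29.3, 30.2 and 23.7 CPM in KO. The granule genes S100a8 and S100a9 of neutrophils had at most 8 reads in any OIR library, and no gene of the neutrophil and T cell list was tested. Of 21 interferon response genes, 4 had an unadjusted p under 0.05, 2 in each direction, and none passed by edgeR or DESeq2 in either set. Of 20 immediate early genes, 3 had an unadjusted p under 0.05, all higher, and none passed by edgeR or DESeq2 in either set.

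Photoreceptor and neuronal cell lists had median log2 fold changes from 0.041 for cones to 0.216 for horizontal cells. Of 27 rod genes tested none passed by edgeR's quasi-likelihood test with all libraries, 4 had an unadjusted p under 0.05, DESeq2 called 2 and the likelihood ratio test 1. Without WT OIR replicate 3, 9 passed, 7 higher and 2 lower, against 5.17% of all genes. Rpgrip1 (overlapped by Supt16), which anchors a ciliary complex of photoreceptors, was at 837, 848 and 588 CPM in WT and 524, 477 and 428 CPM in KO, with no overlap (log2 fold change -0.66, standard error 0.14, edgeR adjusted p = 0.0968). In normoxia Rpgrip1 was higher in KO, with a log2 fold change of 0.57 (edgeR adjusted p = 1.2e-07). Rp1, of the photoreceptor axoneme, was at 8161, 7032 and 5611 CPM and 5469, 4886 and 5462 CPM. Guca1b, a calcium sensor of phototransduction, was higher in KO without overlap, at 499, 517 and 475 CPM and 634, 681 and 641 CPM. C1ql1, a synaptic organizer on the amacrine list, was at 61.7, 66.5 and 58 CPM and 84.9, 91.1 and 105 CPM, also without overlap, with an edgeR adjusted p of 0.175. On the amacrine list 19 genes were tested, and 6 had an unadjusted p under 0.05, all higher. None passed by edgeR's quasi-likelihood test with all libraries, while DESeq2 and the likelihood ratio test each called 1. Of 14 cone, 20 bipolar and 20 ganglion cell genes tested none passed by edgeR or DESeq2 with all libraries, with 3 in each list at an unadjusted p under 0.05. Nefl, the light neurofilament of ganglion cell axons, had a log2 difference of 0.11 (standard error 0.12).

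Hypoxia and glycolysis genes had a median log2 fold change of 0.087 over 44 tested. None passed by edgeR or DESeq2 with all libraries, 6 had an unadjusted p under 0.05, all higher, and 6 of 44 were called without WT OIR replicate 3 (against 5.17% of all genes), 5 higher and 1 lower. Slc2a1, the main glucose transporter, was at 129, 170.1 and 183 CPM in WT and 222, 228 and 231 CPM in KO, without overlap, and Vhl, which marks hypoxia-inducible factors for destruction, at 28.9, 34.1 and 35.8 CPM and 58, 57.2 and 43.6 CPM. Pfkp, a phosphofructokinase, was called lower without WT OIR replicate 3 (-0.78), and its WT levels were 569, 536 and 222 CPM against 333, 330.0 and 298 CPM in KO, with WT replicate 3 below every KO library. Ldha ranged from 73.5 to 257 CPM within WT.

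Nuclear RNAs and splicing factors showed where WT OIR replicate 3 parted from its group. The list of long noncoding RNAs, most of them kept in the nucleus, summed to 12910.0, 14368 and 6814 CPM in WT OIR and 8299.6, 7517 and 8024 CPM in KO OIR. Malat1, of nuclear speckles, was at 9307, 10552 and 4911 CPM in WT and 6031, 5244 and 5900.0 CPM in KO. Meg3, of the imprinted Dlk1 locus, was at 2148, 2237 and 764 CPM and 1117, 1113 and 1020.5 CPM. WT replicates 1 and 2 were alike and high, while replicate 3 lay below the KO libraries for both. Of 19 genes tested none passed by edgeR's quasi-likelihood test with all libraries, 5 had an unadjusted p under 0.05, all lower, and DESeq2 and the likelihood ratio test each called 1. The fit without WT OIR replicate 3 called 5 lower, against 2.3% of all genes. Among them were Malat1 at -0.79 and Meg3 at -1.01 (edgeR adjusted p = 1.07e-09 and 4.34e-10). Kcnq1ot1 (overlapped by Kcnq1) was low in KO and in between in WT replicate 3, at 236, 282 and 144 CPM and 127, 121 and 135 CPM. In normoxia Meg3 and Kcnq1ot1 were higher in KO, with log2 fold changes of 0.49 and 0.92 (edgeR adjusted p = 1.1e-08 and 2.9e-09). Malat1 did not pass there, at 0.073.

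Of the 27 CLK kinases and SR splicing factors tested, 26 had negative log2 fold changes, with a median of -0.269. None passed by edgeR or DESeq2 with all libraries, and 9 had an unadjusted p under 0.05, all lower. Without WT OIR replicate 3, 9 were called lower, against 2.3% of all genes. Luc7l3, a U1 snRNP factor, was at 1380.0, 1379 and 566 CPM in WT and 666, 730.1 and 669 CPM in KO. Clk1, which phosphorylates SR proteins, was at 245, 229 and 90.5 CPM and 93.8, 118 and 99.1 CPM. Cytosolic ribosomal protein genes went the other way in WT OIR replicate 3, which summed to 28729 CPM over 77 genes against 20985 and 21148 CPM in WT replicates 1 and 2 and 22588, 23612 and 21855 CPM in KO. The median log2 fold change of these genes changed sign, from -0.114 with all libraries to 0.111 without WT OIR replicate 3. None of the 77 passed by edgeR or DESeq2 with all libraries. At an unadjusted p under 0.05 there were 11, 9 lower and 2 higher, against 1419 of all 13435 genes tested. Without WT OIR replicate 3, 9 were called higher, against 2.87% of all genes. Of 60 nuclear-encoded respiratory chain genes, 5 had an unadjusted p under 0.05 and none passed by edgeR or DESeq2 with all libraries. In the fit without WT OIR replicate 3, 9 were called higher, against 2.87% of all genes.

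The difference between the labels also followed the genomic span of genes, as a description across genes, which are not independent and share their libraries. Over 12548 genes with a known span (93.4% of those tested), Spearman's rank correlation between span and log2 fold change was -0.119 with all libraries, -0.131 without WT OIR replicate 3 and -0.0219 in normoxia. The median log2 fold change in OIR went from 0.0693 in the 3137 genes with the shortest span to -0.0524 in the 3137 with the longest. The part of this trend in single genes was not tested.

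In normoxia the labels differed in 175 of 13387 genes (1.31%), 86 higher (0.642%) and 89 lower (0.665%) in KO, in libraries not used for the OIR comparison. Of the 16 genes called in OIR, all were tested in normoxia and 3 were called there. Crygf and Sertad3 were higher in KO in both conditions. Sertad3 was at 7.99, 6.14 and 8.48 CPM in WT normoxia and 15.3, 15.4 and 17.6 CPM in KO normoxia, and its log2 fold changes in normoxia and OIR were 1.14 and 1.26. Crygf was at 15.3, 23 and 13.9 CPM and 30.4, 29 and 38.2 CPM (0.88, edgeR adjusted p = 0.0232). Glul went the other way in normoxia, at 1076, 1171 and 1172 CPM in WT normoxia and 732, 855 and 869 CPM in KO normoxia, a log2 fold change of -0.46 (standard error 0.06, edgeR adjusted p = 9.83e-06) against 0.61 in OIR. In sign alone, 5 of the 16 went the same way in both conditions and 11 the opposite way. Over the 12932 genes tested in both, 47.9% had the same sign.

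**Figure D5:**
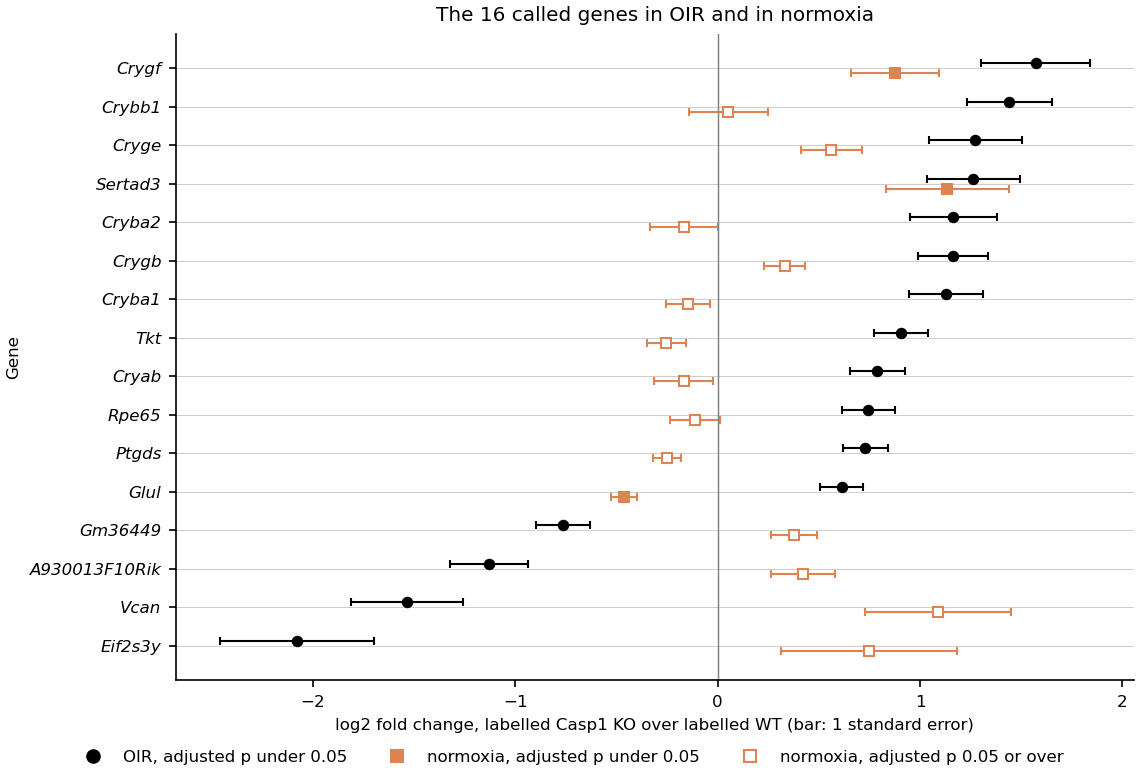
Log2 fold change (horizontal axis, KO over WT) of the 16 called genes in OIR (black circles) and normoxia (orange squares, filled where the adjusted p was under 0.05), with bars of 1 standard error. Sertad3 and Crygf stand on the right in both conditions, Glul at 0.61 in OIR and -0.46 in normoxia, and the 4 lower genes are to the right of 0 in normoxia.

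The difference between the 2 genotype contrasts was tested as an interaction over all 12 libraries, where 139 of 14287 genes passed (0.973%), 79 with a higher and 60 with a lower difference in OIR than in normoxia. This fit holds the OIR libraries again, so it is no independent support for the 16 genes, of which 13 passed it. Among these, Vcan stood at 8.17, 6.63 and 2.83 CPM in WT normoxia and 14.9, 10.5 and 12.3 CPM in KO normoxia, the reverse of its order in OIR (interaction -2.61, standard error 0.45, edgeR adjusted p = 0.00221). Crybb1 was at 34.3, 27.6 and 24.1 CPM and 33.7, 25 and 29.2 CPM in normoxia, with overlap (interaction 1.39, standard error 0.29, edgeR adjusted p = 0.0122). Rpe65 was at 102, 113 and 119.8 CPM and 79.9, 112 and 116 CPM in normoxia, also with overlap (interaction 0.86, standard error 0.19, edgeR adjusted p = 0.0211). Crygf, Cryge and Sertad3 did not pass, with interactions of 0.70, 0.72 and 0.13 and standard errors of 0.36, 0.29 and 0.35.

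Gene lists are set side by side for the 2 conditions, with no test of the difference between lists. All 19 Müller glia genes tested were lower on average in KO normoxia, with a median log2 fold change of -0.358, against 0.215 in OIR. Of the 19, 7 were called lower in normoxia, against 0.665% of all genes. Mt1 and Mt2 were called lower in normoxia, at -0.53 and -0.72, with interactions of 0.87 and 1.19 that passed (edgeR adjusted p = 0.00386 and 0.00221). The γ-crystallins were higher in KO in normoxia too, in 7 of 8 genes, with a median of 0.524 and 2 called, against 0.642% of all genes. By contrast, 7 of 8 α- and β-crystallins were lower on average, with a smallest edgeR adjusted p of 0.657. Of the 719 genes called without WT OIR replicate 3, 714 were tested in normoxia, where 50.3% had the same sign. There were 45 genes called in both, 6.26% of the 719 and 25.7% of the 175, of which 20 went the same way and 25 the opposite way.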

How the data were processed

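Retinal RNA had been extracted with TRIzol and made into QuantSeq 3′ libraries. The authors aligned reads to mm10 with STAR (2.7.5a) and counted them per gene with HTSeq (0.6.1), per the submitters' processing notes and the study's methods, and deposited raw counts per gene for 12 libraries. Whether counting used strand, how reads matching several genes were treated and which annotation was used are not given in the sources used here. From these counts, edgeR 4.0.16 in R 4.3.3 (TMM, filterByExpr, quasi-likelihood test, prior count 0.125, Benjamini-Hochberg adjusted p under 0.05) compared the labels within OIR and within normoxia, and their interaction over all 12 libraries. DESeq2 1.42.0, other normalizations, filters and tests, and leaving out each library were alternatives, and the scripts were tested on simulated data. Levels are CPM on TMM factors over the 12 libraries. Genes were named by this rule: Casp1, then up to 10 higher and 10 lower called genes without overlap, by p and preferring a change of 2-fold or more, then up to 4 called members of each list in each direction (with none called, the 2 most abundant), called genes within 10 Mb of Casp1, and sex-linked transcripts. Genes named outside it were chosen after their values were seen. The comparison, its members and the gene lists were chosen with earlier results of these data known. Sequences and positions came from RefSeq and the GENCODE annotation on GRCm38.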

Additional observations from a re-analysis of the deposited data

Results flagged for a closer look

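For 13 of the 16 genes called in OIR, the difference between the labels itself differed between OIR and normoxia by the interaction term of the edgeR fit, which uses the same OIR libraries and is given on the log2 scale as the OIR difference minus the normoxia difference. Among glial and metabolic genes the interaction was 1.081 for Glul (adjusted p = 3.059e-05), 0.985 for Ptgds (adjusted p = 8.181e-05) and 1.165 for Tkt (adjusted p = 0.0003468). Crystallins gave 1.393 for Crybb1 (adjusted p = 0.01221), 1.339 for Cryba2 (adjusted p = 0.01196), 1.281 for Cryba1 (adjusted p = 0.001793), 0.9674 for Cryab (adjusted p = 0.0215) and 0.8338 for Crygb (adjusted p = 0.04998), and Rpe65 of the pigment epithelium 0.8583 (adjusted p = 0.02107). The genes lower in OIR gave -2.613 for Vcan (adjusted p = 0.002215), -2.834 for the Y chromosome gene Eif2s3y (adjusted p = 0.009085), -1.546 for A930013F10Rik (adjusted p = 0.00161) and -1.138 for Gm36449 (adjusted p = 0.001357), in libraries whose Xist and Y chromosome reads differ.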

How the results depend on the processing

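The OIR count of 16 was 131 with a filter of at least 1 count, 70 by the likelihood ratio test, 66 by DESeq2 and 91 with all 12 libraries in one fit, and it ran from 0 to 719 when 1 library was left out (0 without any one of the KO OIR libraries, 719 without WT OIR replicate 3). Without WT OIR replicate 3 it was 692 by DESeq2, 841 by the likelihood ratio test and 856 when every library had to hold 10 counts. It was 15 to 22 under the other settings tried. Near Casp1, the count of 0 became 1 with at least 1 count, by the likelihood ratio test, by DESeq2 and with all 12 libraries, and 0 to 4 with 1 library left out. Without WT OIR replicate 3 it was 3 by DESeq2, 4 when every library had to hold 10 counts and 5 by the likelihood ratio test. The normoxia count of 175 was 56 with all 12 libraries and 99 to 165 with 1 library left out, lowest without KO normoxia replicate 3. The interaction count of 139 was 277 with at least 1 count, 284 by the likelihood ratio test, 273 by DESeq2 and 59 to 523 with 1 library left out (59 without KO normoxia replicate 2, 523 without WT OIR replicate 3). Replicate numbers did not pair the libraries, with correlations of same-numbered deviations of 0.014 to 0.065 in OIR and -0.037 to 0.02 in normoxia. With the replicate number as a block the counts were 20 in OIR, 114 in normoxia and 136 for the interaction. With 1 OIR library left out, Txnip ran from -0.030 to 1.60, Ldha from -0.060 to 0.77, H3f3b from -0.12 to 0.33 (-0.024 without WT OIR replicate 2) and Rps27a from -0.069 to 0.74, each lowest without WT OIR replicate 1 and highest without replicate 3. Rps14 went from -0.05 with all libraries to 0.33 without WT OIR replicate 3 (edgeR adjusted p = 0.0132). Over the named genes and settings, 82 of 2901 values, from 27 genes, had the other sign than with all 6 libraries, and 25 of these genes did so when 1 library was left out. Of the other values, 2334 kept their side of the threshold, 391 newly passed, 72 no longer passed and 22 had no adjusted p. The cause of these moves was not tested. With 3 libraries a group and 3 counts at 0.545 to 0.735 CPM, differences in genes with a few reads, such as Il1b, Nlrp3, Cxcl1 and Cxcl5, were not detectable at this depth.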
